A study of Mus musculus with 4 samples.

Results

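The cytosolic ribosomal protein genes were taken as the genes whose symbol follows the Rps or Rpl naming of mouse ribosomal proteins (Rps or Rpl with a number and an optional short suffix, plus Rpsa and Rplp0 to Rplp2). The rule gave 83 of the 31053 features, 32 for the small and 51 for the large subunit. Pseudogene features such as the Rp-ps series, and the genes of the mitochondrial ribosome, were not members. The data were 4 single-cell 3′ RNA libraries of sorted live CD45+ cells from C57BL/6 mice at day 14, 1 library per group. The groups were WT mice given Matrigel (normal lung, WT), Rab37 KO mice given Matrigel (normal lung, Rab37 KO), WT mice given LLC tumor cells (tumor, WT) and Rab37 KO mice given LLC tumor cells (tumor, Rab37 KO). LLC is a mouse lung carcinoma line. Rab37 is a small GTPase of vesicle traffic. How many mice went into a library is not stated in the labels. Values per library are given below in this order of groups.

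Each ribosome holds 1 small and 1 large subunit, and each subunit is an assembly of ribosomal RNA with a fixed set of proteins, so most ribosomal protein genes are expressed together in all cells. Their mRNAs typically begin with a pyrimidine tract (the TOP motif), through which mTOR signalling and the La-related protein Larp1 set their translation. Lymphocytes are known for high ribosomal protein mRNA, and mature neutrophils, which are short-lived and hold few ribosomes, for little. A few members have paralogs that can take their place in the ribosome.

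The sequences around the RefSeq transcription start of the members that the results below turn on show where pyrimidine tracts lie. Each holds the 40 bases before the start and the first 20 bases from it, on the gene's own strand in GRCm38.p6 (RefSeq), and capitals mark the first run of a C followed by at least 6 pyrimidines.
Rps24 (chr14:24490638-24490697, + strand): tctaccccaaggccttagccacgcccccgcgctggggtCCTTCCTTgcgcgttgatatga
Rps9 (chr7:3704001-3704060, + strand): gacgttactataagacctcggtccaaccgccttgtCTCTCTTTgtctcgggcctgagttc
Rps27 (chr3:90213629-90213688, - strand): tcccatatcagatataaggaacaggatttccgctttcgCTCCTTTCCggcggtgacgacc
Rpl10a (chr17:28328431-28328490, + strand): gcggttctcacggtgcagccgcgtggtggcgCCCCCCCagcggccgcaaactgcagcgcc
Rpl5 (chr5:107900488-107900547, + strand): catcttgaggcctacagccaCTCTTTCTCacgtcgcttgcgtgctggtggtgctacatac
Rpl35 (chr2:39005112-39005171, - strand): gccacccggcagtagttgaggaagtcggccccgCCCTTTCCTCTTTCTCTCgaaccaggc
Rps15 (chr10:80292391-80292450, + strand): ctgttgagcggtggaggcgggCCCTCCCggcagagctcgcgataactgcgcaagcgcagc
Rpl12 (chr2:32961672-32961731, + strand): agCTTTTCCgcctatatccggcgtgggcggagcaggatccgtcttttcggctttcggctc
Rpl3l (chr17:24727786-24727845, + strand): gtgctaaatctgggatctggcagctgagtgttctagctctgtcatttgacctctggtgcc
Rps24 is shown as the most abundant member, Rps9, Rps27 and Rpl10a for their departure in neutrophil-like cells, Rpl5, Rpl35, Rps15 and Rpl12 for their differences between libraries, and Rpl3l as a paralog whose window held no such tract. The marked tract ran over the first transcribed base in Rps24, Rps9, Rps27 and Rpl35, and lay wholly upstream of it in Rpl10a, Rpl5, Rps15 and Rpl12. RefSeq promoter sequences matched 63 members. Such a tract lay in this window in 37 of the 63 (58.7%), against 27.6% of 27025 RefSeq promoters. It ran over the first transcribed base in 17 of the 63 (27.0%), against 4.19% of all. Over the whole promoter window, on either strand, CCGGAAG occurred in 39.7% of members and 9.12% of all, AAGATGG in 14.3% and 6.47%, and TATAAA in 9.52% and 14.2%.

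After filtering, 5063, 4646, 644 and 2725 cells remained in the 4 libraries, with between 5183771 and 34369993 UMIs per library. Doublet calls removed 179, 80, 3 and 4 cells. Clustering without the members gave 7 classes named from marker genes, written here with the ending "-like". Their own markers were highest in their own class for all T, B, NK, alveolar macrophage and neutrophil markers in each library, for 6 or 7 of 8 dendritic cell markers, and for 12 to 17 of 22 markers of the pooled monocyte/macrophage class. Clusters 4 (led by Xcl1 and Ccl5), 16 (Icos, Cxcr6) and 7 (Arg1, Ppbp, Pf4) had more markers of another class than of their own among their leading genes, and were kept out of the classes. By marker score clusters 4 and 16 were T cells and cluster 7 classical monocytes. In the KO tumor library cluster 7 held 595 cells, where the monocyte/macrophage-like class held 260. The 3 clusters thus left T-like and monocyte-like cells outside the classes. With smaller clusters of other types, clusters 4, 16 and 7 made up 13.2%, 16.2%, 13.4% and 25.2% of the cells. Pairs of libraries shared 0 to 6 cell barcodes. Rab37 stood at 8.50 CPM (UMIs of a gene scaled to the total of all genes) in normal WT and 4.63 in tumor WT, against 0.385 and 0.266 in the 2 KO libraries.

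The module was detected almost throughout. Rps24, a small-subunit protein, was the most abundant member at 2.81% of all member UMIs, ahead of Rps29 at 2.75% and Rps27 at 2.40%. The 10 most abundant members held 22.3% of the module, so no single gene dominated it. At the other end stood the paralogs: Rpl22l1 at 0.283%, Rps27l at 0.118%, Rpl7l1 at 0.0212% and Rpl3l at 0.00419%. Rpl39l had 134 UMIs in all cells together and Rpl10l had 3. These are UMI counts at the 3′ end, and genes differ in how well they are captured. Rpl13a, a large-subunit protein, was counted at only 0.108% of the module.

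Cell classes differed widely in how much of their mRNA encoded ribosomal proteins. T-like cells gave 35.0% ± 6.14 of UMIs (SD, n = 4 libraries) to members and B-like cells 33.1% ± 2.71. NK-like cells stood at 24.5% ± 1.29 and dendritic-like cells at 24.1% ± 1.91. Monocyte/macrophage-like cells followed at 18.0% ± 3.02, alveolar macrophage-like cells at 14.1% ± 0.995 and neutrophil-like cells at 4.92% ± 0.661.

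**Figure D1:**
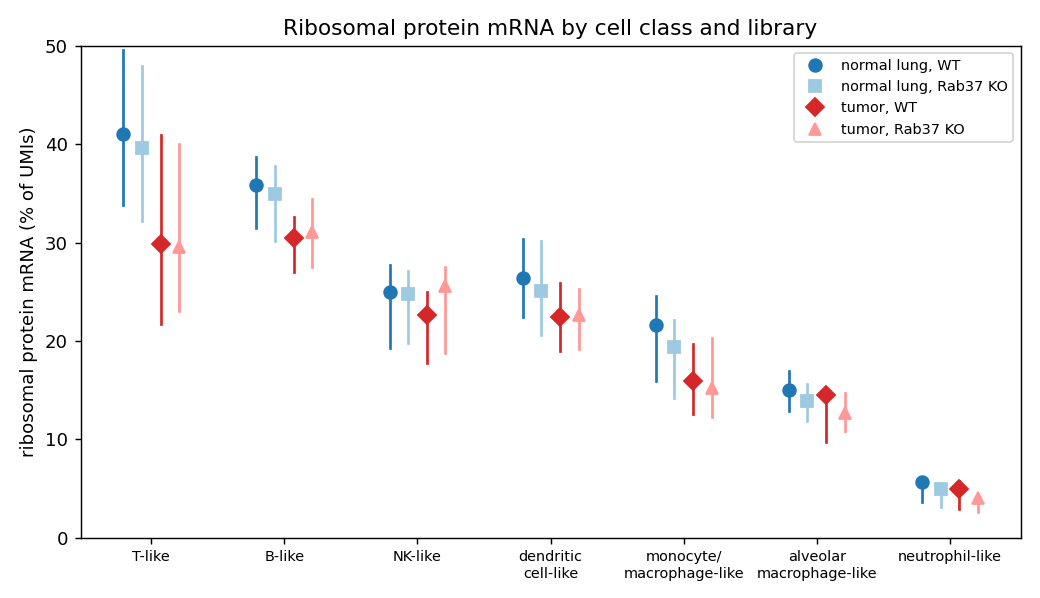
Share of each class's UMIs that came from the 83 ribosomal protein genes, in percent, for the 4 libraries. Symbols are the shares of summed UMIs and vertical lines span the lower to upper quartile over single cells. Neutrophil-like cells lie between 4.07% and 5.68% in every library, and T-like cells between 29.6% and 41.0%.

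The plot of shares by class shows that the order held within each library for most steps. T-like cells exceeded neutrophil-like cells by 30.1 percentage points ± 5.68 (SD, n = 4), and in 4 of 4 libraries. B-like exceeded NK-like cells in 4 of 4 libraries (8.63 points ± 2.44), dendritic-like exceeded monocyte/macrophage-like cells in 4 of 4 (6.11 ± 1.17), and these exceeded alveolar macrophage-like cells in 4 of 4 (3.99 ± 2.45). Alveolar macrophage-like cells lay above neutrophil-like cells in 4 of 4 by 9.13 points ± 0.386. Each of these 5 differences had an exact two-sided sign-flip p of 0.13, the smallest that 4 libraries can give, and 0.175 after Benjamini-Hochberg adjustment over 7 pairs. T-like and B-like cells differed by 1.91 points ± 3.47, with T-like cells higher in 2 of 4 libraries (exact p = 0.5, adjusted 0.583). NK-like and dendritic-like cells differed by 0.319 points ± 1.84, higher in 2 of 4 (exact p = 0.875, adjusted 0.875). Neutrophil-like cells had medians of 2120.5 to 3480 UMIs per cell, against 2721 to 4297 in NK-like and 3480.5 to 5353 in T-like cells. With cells of at least 1500 UMIs only, the mean share was 4.93% in neutrophil-like and 35.0% in T-like cells.

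Single cells of a class spread widely. In normal WT the middle part of the T-like cells, from lower to upper quartile, ran from 33.8% to 49.6% of UMIs, and that of the neutrophil-like cells from 3.60% to 5.66%. Within T-like cells, cluster 2 (led by Dapl1, Cd8b1 and Lef1) stood at 47.5% in normal WT and 46.4% in normal Rab37 KO. In the same order cluster 10 (Tnfrsf4, Ctla4, Foxp3) stood at 30.9% and 30.2%, and cluster 21 (Hist1h1b, Top2a, Mki67) at 28.3% and 27.1%. Of the clusters without a class name, cluster 4 stood at 39.4% and 38.5% in the normal libraries, cluster 16 at 27.9% and 25.4%, and cluster 7 at 17.03% in tumor WT and 13.04% in the KO tumor library. Cluster 27, led by Rhox5, Col3a1 and Cald1, stood at 31.3% in the KO tumor library.

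Gene by gene, the members moved together between classes. Of the 83, 81 had enough counts for the test across all genes (edgeR's quasi-likelihood test on class sums, with the library as a block and Benjamini-Hochberg adjustment over 10521 genes). In NK-like against T-like cells 72 of 81 members were lower and 0 higher at adjusted p under 0.05, where 9.36% and 7.71% of all genes were. No member was higher at an unadjusted p under 0.05 either, and DESeq2 called 0 higher. The lower count fell to 21 without normal WT and 22 without normal Rab37 KO. The median member was 0.67 lower on the log2 scale (-0.67), against -0.07 over all genes.

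In monocyte/macrophage-like against T-like cells, 76 of 81 members were lower and 2 higher, beside 23.1% and 26.9% of all genes. The higher count was 1 without tumor WT and 1 without tumor Rab37 KO. The 2 higher ones were paralogs, Rps27l (log2 difference 0.75 ± 0.28 SE, adjusted p = 0.0297) and Rpl3l. The median member stood at -0.94. Dendritic-like cells went the other way against monocyte/macrophage-like cells: 76 of 81 members were higher and 1 lower, beside 10.9% and 11.5% of all genes, with a median of 0.61. The 1 lower member was Rpl3l. Without normal WT, normal Rab37 KO or tumor Rab37 KO the higher count was 22, 37 and 44, and without normal WT or without normal Rab37 KO the lower count was 0.

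Alveolar macrophage-like cells had 52 of 81 members lower than monocyte/macrophage-like cells and 1 (Rpl3l) higher, beside 21.2% and 18.0% of all genes. The lower count was 25 without normal WT and 19 without normal Rab37 KO. B-like against T-like cells had 0 of 81 members higher and 1 lower (Rplp0, a protein of the ribosomal stalk, at -0.52 ± 0.15 SE, adjusted p = 0.00937), beside 10.9% and 13.6% of all genes. At an unadjusted p under 0.05, 1 member was higher and 3 were lower, and DESeq2 called 1 and 2. Without normal WT or without normal Rab37 KO the lower count was 0, and without tumor Rab37 KO it was 2 lower and 1 higher.

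Neutrophil-like cells had 70 of 81 members lower than monocyte/macrophage-like cells and 3 higher, beside 36.4% and 28.4% of all genes. The median member was at -1.07 after TMM scaling, where all genes had a median of -0.32. With library size alone as the scale the median was -2.11 for members and -1.41 for all genes, and 80 members were lower and 1 higher. The 3 higher after TMM scaling were Rps9 (0.67 ± 0.13 SE, adjusted p = 0.000111), Rps27 (0.44 ± 0.15 SE, adjusted p = 0.0147) and Rpl3l. With library size alone Rps9 and Rps27 were among the 80 lower, so their direction on the scale of all genes depended on the scaling. Of the 70 lower, 64 were called lower in all 13 settings of the analysis, a count not made over all genes.

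A second fit scaled each sum by its member UMIs, so that it tested which genes departed from the module rather than moved with it. Since other genes do not follow the module, large parts of the transcriptome departed: 60.9% of all genes in neutrophil-like against monocyte/macrophage-like cells, where 52 of 81 members did, 16 higher and 36 lower. The median member stood at -0.24 on this scale, where the other contrasts had medians from -0.007 to 0.027. With the member total as the scale, a rise in abundant members lowers the rest. Its part in the 36 was not tested. The 52 departing members were 64.2% of those tested, near the share of all genes. In this contrast 9 members were called higher and 23 lower in all 12 settings, a count not made over all genes. DESeq2 called 18 higher and 41 lower.

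Rps9, a small-subunit protein that binds early in assembly, made up 4.96%, 5.11%, 5.03% and 5.78% of member UMIs in neutrophil-like cells of the 4 libraries. The same gene held 1.77%, 1.92%, 1.62% and 2.03% in monocyte/macrophage-like cells. The log2 difference between the classes, for whose size Rps9 was named, was 1.51 ± 0.11 SE (adjusted p = 1.35e-11). Rps27, also of the small subunit, held 6.05%, 5.75%, 5.23% and 4.95% in neutrophil-like cells and 2.75%, 2.48%, 2.06% and 1.75% in monocyte/macrophage-like cells. Its difference was 1.29 ± 0.12 SE (adjusted p = 9.89e-10), so Rps27 was the largest single member there in normal WT. All 50-base words in the last 300 bases of the Rps27 transcript also occur in another annotated gene, so its counts depend on how such reads were assigned.

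On the low side stood Rpl10a, a large-subunit protein of the L1 stalk, with 0.242%, 0.232%, 0.265% and 0.294% of member UMIs in neutrophil-like cells. It held 0.686%, 0.688%, 0.754% and 0.869% in monocyte/macrophage-like cells (log2 difference -1.53 ± 0.12 SE, adjusted p = 7.61e-11). Rpl3, a core protein near the peptidyl transferase centre, held 0.282%, 0.339%, 0.460% and 0.360%, against 0.724%, 0.761%, 1.09% and 0.949% (-1.29 ± 0.12 SE, adjusted p = 7.07e-10). Rps4x, the X-linked small-subunit member, followed with -1.11 ± 0.12 SE (adjusted p = 4.32e-09). For Rpl10a, Rpl3 and Rps4x the groups of 4 values did not overlap between the classes. This adds no support, since members of a contrast were named for large differences in these same values. For Rpl10a and Rpl3, 86.8% and 76.5% of the 50-base words at the transcript end occur in another gene.

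**Figure D2:**
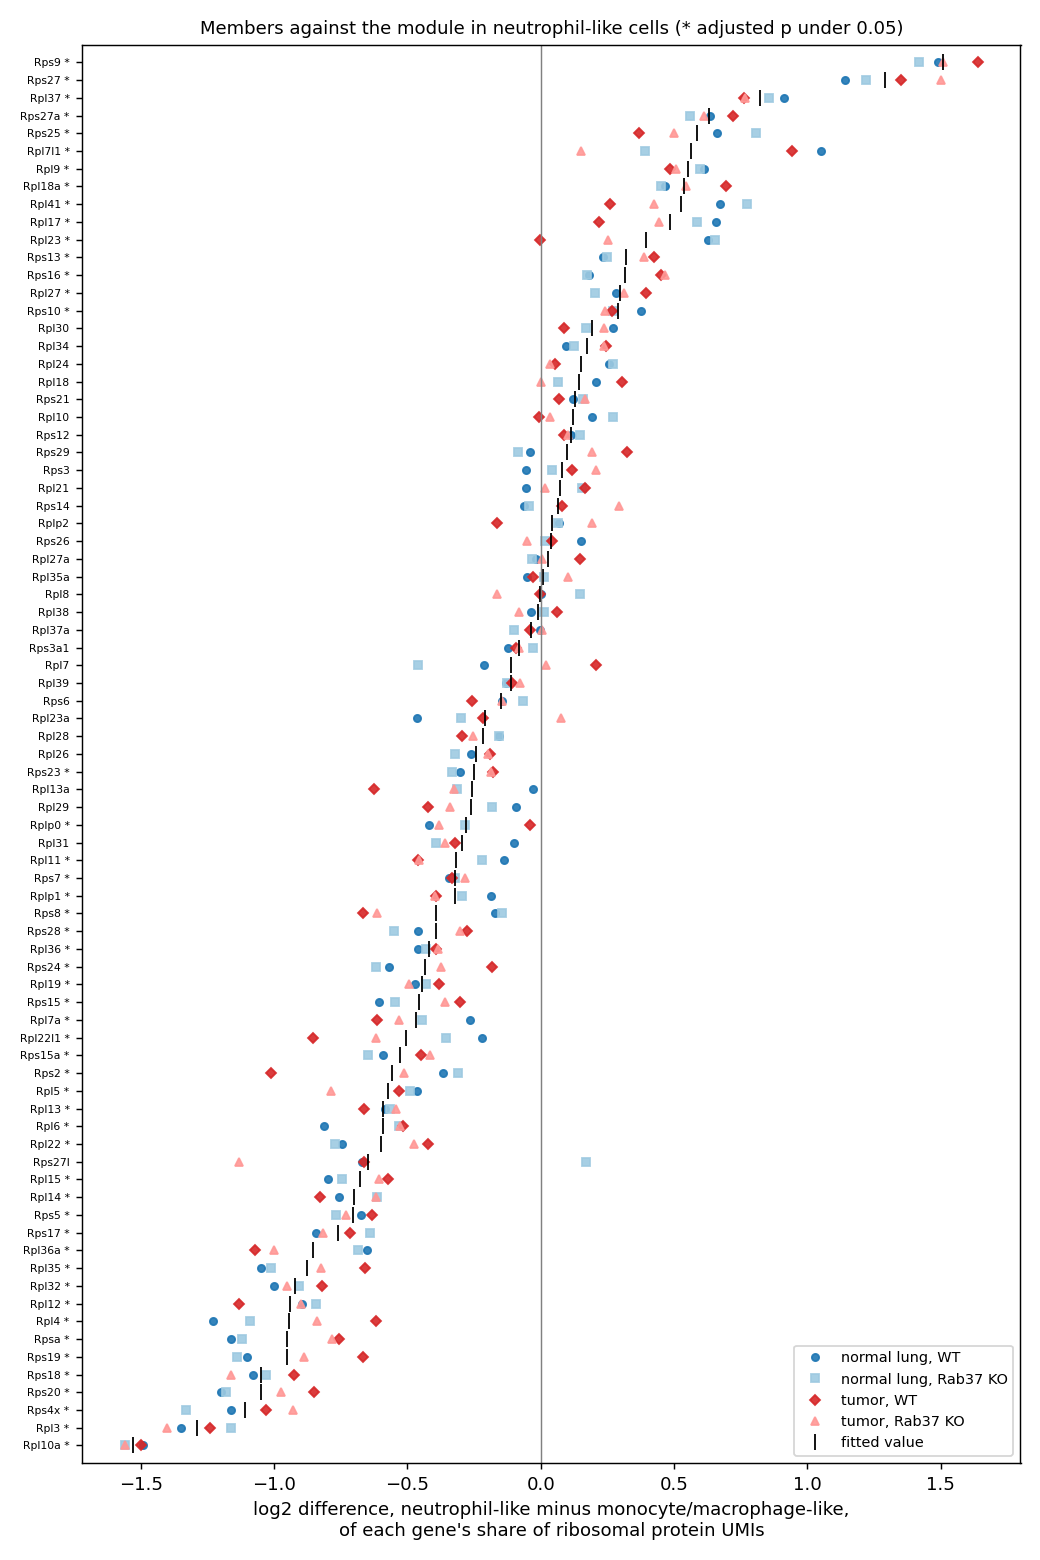
Log2 difference between neutrophil-like and monocyte/macrophage-like cells in each member's share of ribosomal protein UMIs, for 79 members (Rpl3l, at 3.03, lies beyond the axis and is left out). Coloured symbols are the 4 libraries, black ticks the fitted value, and an asterisk marks adjusted p under 0.05. Rps9 and Rps27 lie at the top and Rpl10a and Rpl3 at the bottom in all 4 libraries.

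Departures elsewhere were fewer. Monocyte/macrophage-like against T-like cells had 20 of 81 members departing, beside 73.4% of all genes. Rpl10, the X-linked large-subunit member that joins late, was 0.83 ± 0.12 SE higher (adjusted p = 2.41e-06), though all 50-base words at its transcript end occur in another gene, and Rpl7l1 was higher by 1.17 ± 0.21 SE (adjusted p = 2.35e-05). The lowest were Rpl12 (-0.69 ± 0.16 SE, adjusted p = 0.00053), Rps20 (-0.38 ± 0.12 SE, adjusted p = 0.00517) and Rps15a (-0.37 ± 0.11 SE, adjusted p = 0.00344). The count was 47 with DESeq2, 10 without normal WT, 10 without normal Rab37 KO and 12 without tumor Rab37 KO.

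NK-like against T-like cells had 10 of 81 departing, beside 48.7% of all genes, 3 without normal WT or without normal Rab37 KO and 23 with DESeq2. Rps19, a small-subunit protein of the head, held 1.03%, 0.9495%, 1.05% and 0.937% of member UMIs in NK-like cells and 1.69%, 1.74%, 1.65% and 1.68% in T-like cells. The difference, for whose size Rps19 was named, was -0.77 ± 0.12 SE (adjusted p = 1.23e-05). Rps20 was lower by the same test (-0.58 ± 0.12 SE, adjusted p = 0.000318) and Rpl10 higher (0.61 ± 0.13 SE, adjusted p = 0.000404), and these 3 were called in all 12 settings. Rpl12 (-0.57), Rpl27 (0.34) and Rpl38 (0.32) also passed the test (adjusted p = 0.00624, 0.0279 and 0.0159) but not in all settings.

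In alveolar macrophage-like against monocyte/macrophage-like cells 19 of 81 members departed, beside 63.9% of all genes, 4 without normal WT, 3 without normal Rab37 KO and 38 with DESeq2. Rpl27a held between 1.21% and 1.22% of member UMIs in the 4 libraries of the first class and between 1.61% and 1.72% in the second (-0.46 ± 0.10 SE, adjusted p = 0.000445). Rps27 (-0.47), Rps29 (-0.36) and, on the high side, Rplp1 (0.58 ± 0.12 SE, adjusted p = 0.000264) followed. Dendritic-like against monocyte/macrophage-like cells had 4 of 81 departing, beside 50.2% of all genes. They included Rpsa, also known as the laminin receptor (0.30 ± 0.11 SE, adjusted p = 0.0306), Rpl22l1 and Rpl3l, and the count was 20 with DESeq2, 1 without normal WT or without normal Rab37 KO and 2 without tumor WT. B-like against T-like cells had 3 of 81, beside 23.1% of all genes: Rps27 higher (0.40 ± 0.12 SE, adjusted p = 0.0151), Rplp0 (-0.46 ± 0.11 SE, adjusted p = 0.00308) and Rplp1 (-0.38 ± 0.12 SE, adjusted p = 0.0251) lower. That count was 19 with DESeq2, 0 without normal WT or without normal Rab37 KO and 1 without tumor WT.

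Tumor was next compared with normal lung. With 1 library per group these comparisons describe the libraries and carry no test, and intervals cover counting error only. The module took a smaller share in tumor in all 7 classes of WT mice, by a class-averaged log2 ratio of -0.25 ± 0.15 (SD over classes), and in 6 of 7 classes of Rab37 KO mice (-0.21 ± 0.16). T-like cells fell from 41.0% to 29.8% in WT (ratio 0.727, 95% interval 0.721 to 0.733) and from 39.6% to 29.6% in Rab37 KO (0.748, 0.742 to 0.753). Cluster 10 held 21 of the 38 T-like cells in tumor WT and 24 of 42 in the KO tumor library, and within it the share was 23.8% and 27.4% in tumor against 30.9% and 30.2% in normal lung. Monocyte/macrophage-like cells went from 21.7% to 15.9% in WT and from 19.4% to 15.2% in KO, where cluster 18 (Gpnmb, Spp1) held 128 of 177 cells in tumor WT and clusters 12, 13, 14 and 15 most cells in normal lung. Neutrophil-like cells also came from different clusters, 368 of 384 and 548 of 564 from cluster 3 in normal lung and most from clusters 6 and 8 in tumor. Normal and tumor libraries were also written by different software versions, and their sex-linked RNA differed. Y-linked genes stood at 94.7 CPM in normal WT and 0.193 in tumor WT. Xist, the X-inactivation RNA of female cells, stood at 468 CPM in normal KO and 40.3 in tumor KO. Tissue, software version and cell sex therefore cannot be told apart.

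Rab37 KO against WT gave smaller differences of the module. In normal lung the KO library was lower in 7 of 7 classes, by -0.09 ± 0.07 on average and from -0.01 in NK-like to -0.20 in neutrophil-like cells. In tumor it was lower in 4 of 7 classes (-0.05 ± 0.16). Of these, T-like cells had a ratio of 0.993 (95% interval 0.982 to 1.004). Alveolar macrophage-like cells went from 14.5% in tumor WT to 12.7% in the KO tumor library. Cluster 0 (Ear1, Ear2), with 21 of their 23 cells in tumor WT, went the other way, from 12.06% to 12.79%. Neutrophil-like cells of the tumors went from 5.005% in WT to 4.07% in Rab37 KO (ratio 0.813, 95% interval 0.803 to 0.823), and NK-like cells from 22.6% to 25.6% (1.13, 1.11 to 1.149). Neutrophil markers took 0.222% of the UMIs of T-like cells in the WT tumor library and 0.0151% in the KO one, and 1.08% and 0.342% in dendritic-like cells. The part of such RNA in these ratios was not tested beyond leaving out cells rich in it, which gave -0.04 for the class average in tumor.

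Single members also departed from the module between libraries. For KO against WT in tumor, 44 of 79 members lay within 0.2 of the module on the log2 scale and 38 had the same sign in every class measured. These 2 counts were not made over all genes, so they do not set members apart from other genes. Rpl12, a stalk-base protein of the large subunit, held 1.45% and 1.63% of member UMIs in T-like cells of the normal libraries, 0.546% in tumor WT and 1.16% with Rab37 KO. In neutrophil-like cells it held 0.438%, 0.496%, 0.174% and 0.432% in the same order. Tumor WT was the lowest library in both, as it was in all 7 classes. For KO against WT in tumor, Rpl12 differed by 1.20 ± 0.42 (class-averaged log2, SD over 7 classes), a 2.29-fold difference.

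Rps15, a small-subunit protein of the head, followed with 1.05 ± 0.12. Its share in monocyte/macrophage-like cells was 0.820% and 0.961% in the normal libraries, 0.398% in tumor WT and 0.860% with the KO. Rpl23a came next with 0.78 ± 0.26. Of 79 members with at least 20 UMIs in both libraries in at least 4 classes, 9 were at least 1.5-fold higher in tumor Rab37 KO than in tumor WT relative to the module and 1 was lower, where 5.14% and 3.63% of all genes were. The other 6 higher ones were Rps14, Rps25, Rpl5, Rps12, Rps6 and Rpl13a, chosen by the 1.5-fold limit after their values were seen. The lowest were Rps27l (-0.64 ± 0.38 over 6 classes), Rpl35 (-0.44 ± 0.10) and Rps28 (-0.40 ± 0.10).

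**Figure D3:**
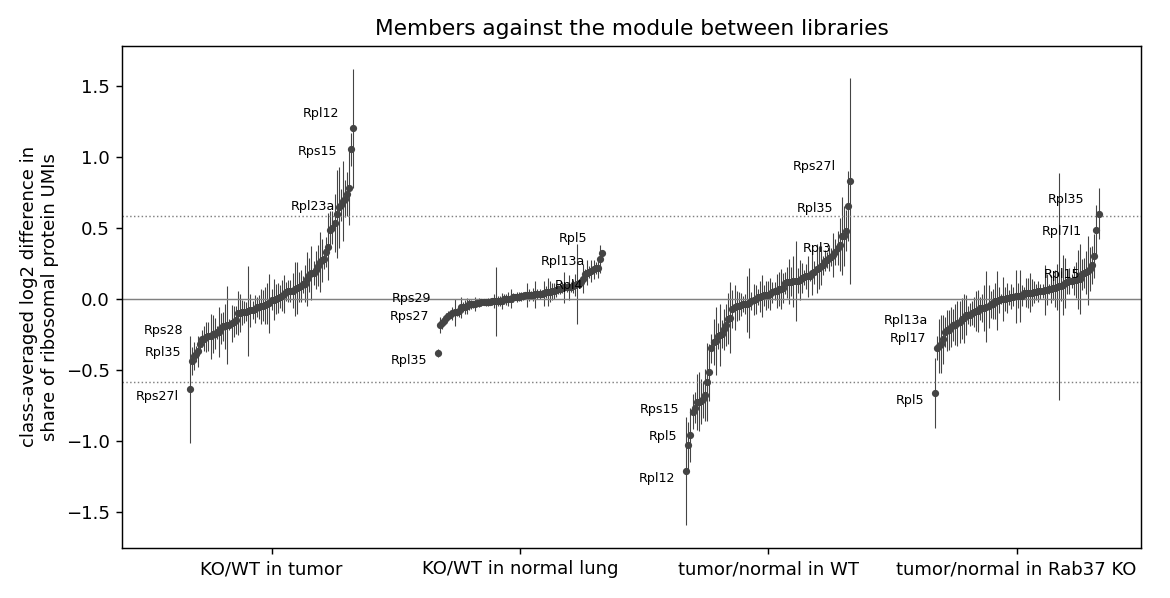
Class-averaged log2 difference of each member's share of ribosomal protein UMIs for the 4 comparisons of libraries, members sorted within each comparison. Points are means over up to 7 classes, vertical lines 1 SD over classes, and dotted lines mark 1.5-fold. In KO against WT in normal lung no member passes 1.5-fold, and in both comparisons with tumor WT Rpl12 and Rps15 lie at or near the end of the range.

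The same members stood out when tumor WT was set against normal WT, a comparison that shares the tumor WT library with the last one. Rpl12 was at -1.21 ± 0.38, Rpl5 at -1.03 ± 0.16 and Rps15 at -0.96 ± 0.19. Rpl5, which with Rpl11 and 5S RNA forms the particle that joins the large subunit early, held 0.531% and 0.682% in monocyte/macrophage-like cells of normal WT and normal KO, 0.254% in tumor WT and 0.491% in tumor KO. On the high side stood Rps27l (0.83 ± 0.72), Rpl35 (0.65 ± 0.25) and Rpl3 (0.48 ± 0.14). In all, 2 of 79 members were at least 1.5-fold higher and 11 lower, beside 36.3% and 2.53% of all genes on this scale.

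The comparisons without tumor WT were quieter. In Rab37 KO, tumor against normal had 1 of 80 members higher (Rpl35, 0.60 ± 0.18) and 1 lower (Rpl5, -0.66 ± 0.25), beside 18.0% and 1.22% of all genes. Rpl7l1 (0.48 ± 0.18 over 4 classes), Rpl15 (0.30 ± 0.16), Rpl17 (-0.34 ± 0.08) and Rpl13a (-0.33 ± 0.19) came next. In normal lung, KO against WT had 0 of 80 higher and 0 lower, beside 0.447% and 0.136% of all genes. The ends of that range were Rpl5 (0.32 ± 0.02), Rpl13a (0.28 ± 0.10) and Rpl4 (0.22 ± 0.07), and Rpl35 (-0.38 ± 0.03), Rps27 (-0.18 ± 0.06) and Rps29 (-0.17 ± 0.04).

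Set against all 3 other libraries, tumor WT had the lowest share of the module for 14 members in every one of the 7 classes and the highest for 12, of 77 members with at least 20 UMIs in all 28 sums. Over all 526 genes with as many UMIs, members included, 3.99% were lowest there and 8.17% highest by the same rule, each relative to member UMIs. The same member counts were 1 and 0 for normal WT (2.09% and 0.0% of all genes), 3 and 7 for the KO normal library (1.33% and 1.52%), and 2 and 1 for the KO tumor library (0.38% and 0.76%). All 7 members highest in the KO normal library (Rpl12, Rps6, Rpl5, Rps12, Rplp1, Rpl14 and Rpl17) were among the 14 lowest in tumor WT. Of the 3 lowest in the KO normal library, Rpl35 and Rpl38 were among the 12 highest in tumor WT, and Rps29 was not. These overlaps were not counted over all genes, so they do not set members apart from other genes. Members low throughout in tumor WT included Rpl12, Rps15, Rpl5, Rps12, Rps14, Rplp1 and Rpl23a, and those high throughout included Rpl35, Rpl37, Rpl37a, Rpl38, Rpl39, Rpl41 and Rpl3. The spread between classes was small beside these differences: the median SD over classes was 0.12 for KO against WT in tumor, and the SD of the member means was 0.34. Across the 79 members the differences had a Spearman rho of -0.042 with the GC content of the transcript's last 300 bases, of 0.30 with transcript length and of -0.12 with the share of 50-base words found in other genes. For Rpl12 and Rpl5 that share is 0%, for Rps15 55.8% and for Rpl35 96.0%. These features come from 1 protein-coding GENCODE transcript per gene, the first by name, which may not be the form expressed here. A share of 0% therefore does not show that the counted reads were unique to the gene.

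**Figure D4:**
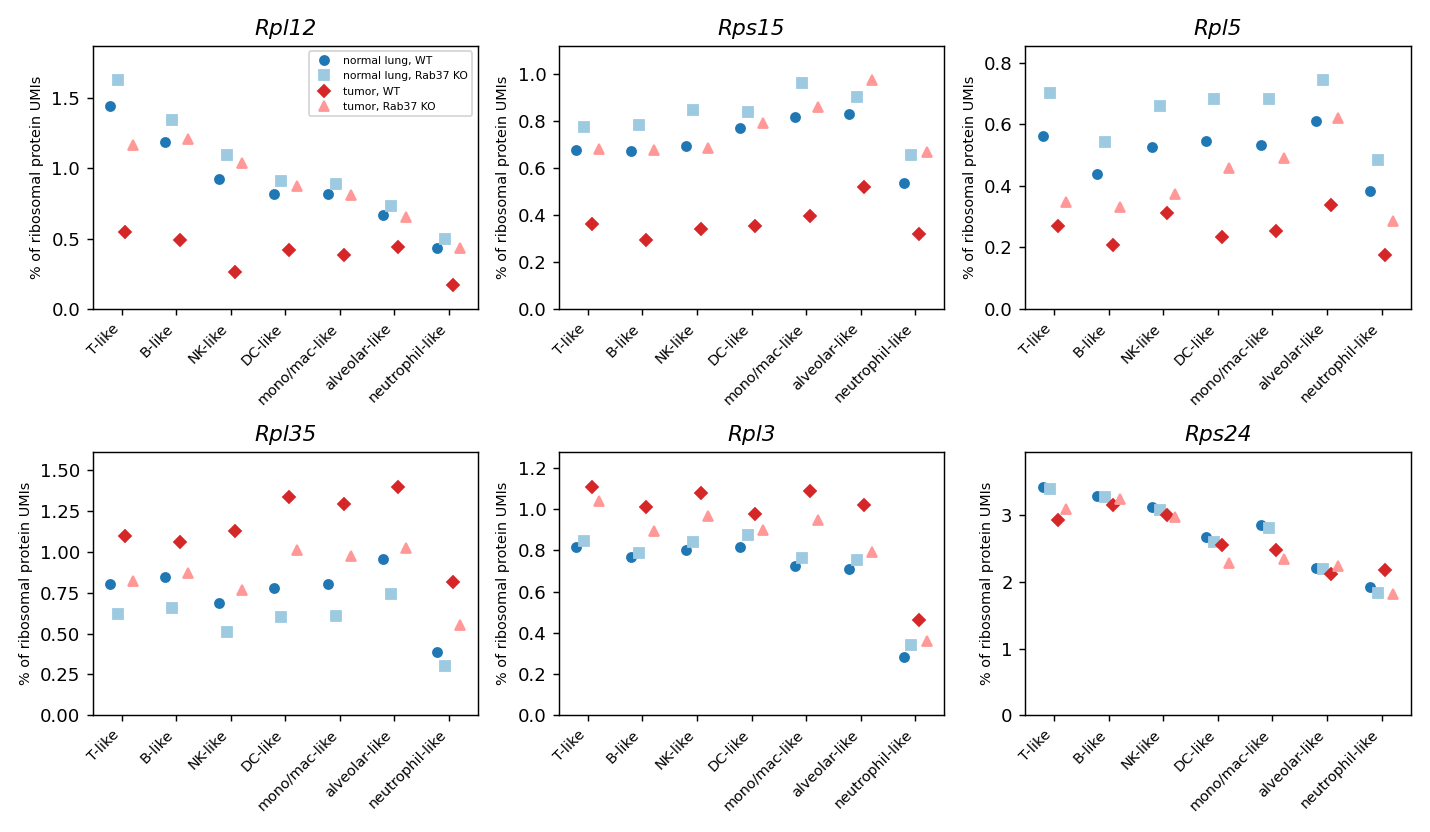
Share of ribosomal protein UMIs, in percent, of 6 members in the 7 classes, 1 symbol per library. Tumor WT lies lowest in every class for Rpl12, Rps15 and Rpl5 and highest in every class for Rpl35 and Rpl3, while Rps24, the most abundant member, differs little between libraries.

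The paralogs followed cell class. Rps27l, a p53-responsive copy of Rps27, made up 14.2% ± 2.27 (SD, n = 4) of the pair's UMIs in alveolar macrophage-like cells, 9.11% ± 1.31 in dendritic-like and 7.09% ± 4.46 in monocyte/macrophage-like cells. In T-like cells it was 1.959% ± 0.867, in B-like 0.873% ± 0.290 and in neutrophil-like cells 1.86% ± 0.880. The 4 alveolar values (11.9% to 17.3%) lay above all of the T-like ones (1.17% to 3.099%). Relative to the module Rps27l was higher in monocyte/macrophage-like than T-like cells (1.68 ± 0.31 SE, adjusted p = 3.14e-05) and in alveolar macrophage-like than monocyte/macrophage-like cells (0.81 ± 0.29 SE, adjusted p = 0.0187), the latter not without normal WT (adjusted p = 0.145) or normal Rab37 KO (0.165). Monocyte/macrophage-like cells differed by tissue, with 0.0918% and 0.0831% of member UMIs in normal lung and 0.262% and 0.208% in tumor, with cluster 18 the main cluster in tumor WT and clusters 12, 13 and 14 holding 40, 85 and 99 of 260 cells in the KO tumor library.

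Rpl22l1, a copy of Rpl22 that can replace it, made up 33.1% ± 1.22 of the pair in NK-like, 29.8% ± 1.70 in T-like and 19.1% ± 3.29 in dendritic-like cells. Its share of the module was lower in dendritic-like than monocyte/macrophage-like cells (-0.49 ± 0.16 SE, adjusted p = 0.0123), but not without normal WT (adjusted p = 0.0858) or normal Rab37 KO (0.0648). Rpl7l1, a relative of Rpl7 linked to ribosome assembly, made up 2.17% ± 1.01 of its pair in T-like cells. That share was 4.69% ± 1.54 in alveolar macrophage-like and 5.95% (from 4.41% to 8.80%) in neutrophil-like cells. In CPM, however, Rpl7l1 was lower in neutrophil-like cells (24.8, 14.9, 33.1 and 16.9) than in T-like cells (39.6, 37.6, 52.7 and 62.7).

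Rpl3l, known as the striated-muscle form of Rpl3, had 1, 1, 0 and 0 UMIs in T-like cells of the 4 libraries and 0 in all B-like cells. In alveolar macrophage-like cells it had 272, 220, 4 and 71, and in neutrophil-like cells 11, 47, 9 and 77. Its level averaged 20.8 CPM in the first and 16.8 CPM in the second. Msrb1, a selenoprotein gene on the same strand, starts at 24736642 on chromosome 17 in GENCODE vM21 coordinates, just past the Rpl3l end at 24736143. Msrb1 averaged 2387 CPM in neutrophil-like, 887 in alveolar macrophage-like, 674 in monocyte/macrophage-like and 70.6 in T-like cells. The part of reads from the neighbouring gene in the Rpl3l counts was not tested. Rpl39l, a testis-enriched copy of Rpl39, stayed at or under 0.191% of its pair in each neutrophil-like sum, and Rpl10l, likewise a testis gene, had 3 UMIs in all.

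**Figure D5:**
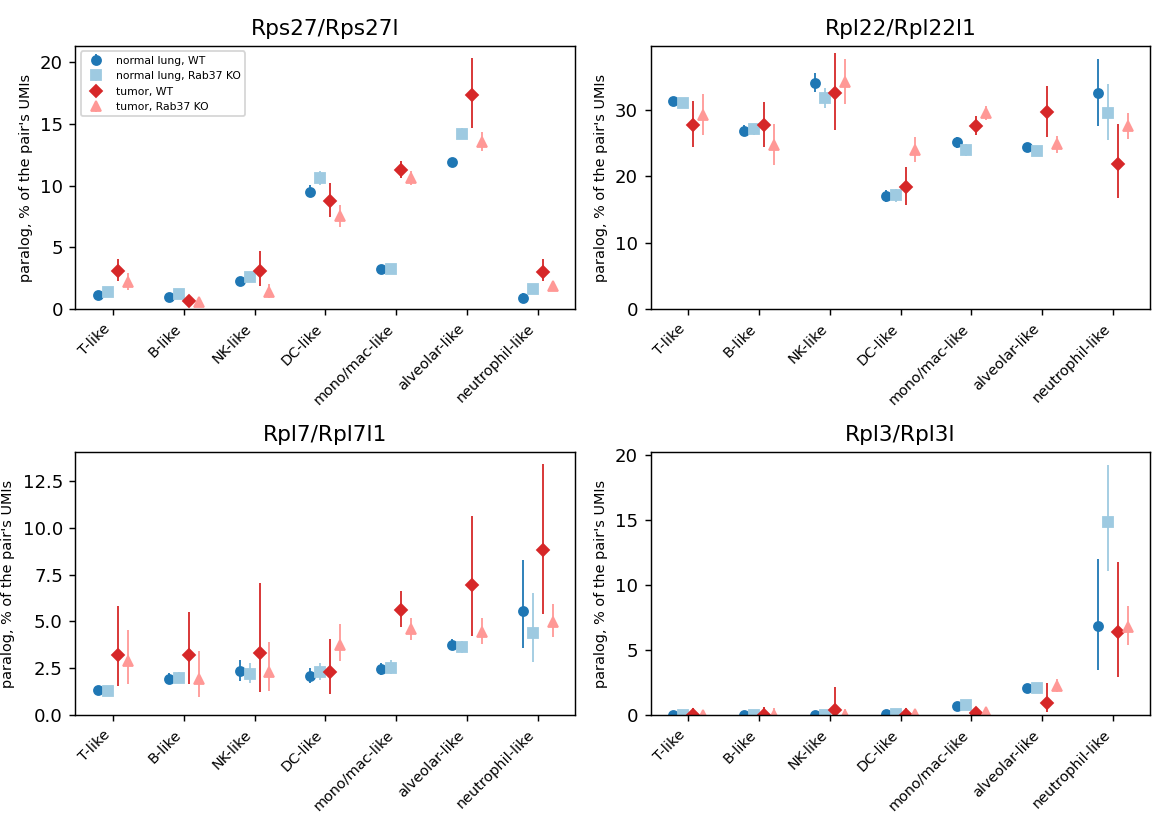
Share of a pair's UMIs that came from the paralog, in percent, by class and library, with 95% Clopper-Pearson intervals from counting error. Rps27l is highest in alveolar macrophage-like cells in all 4 libraries, and Rpl3l in neutrophil-like cells.

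All 4 X-linked members, Rps4x, Rpl10, Rpl36a and Rpl39, were measured in every class. Xist stood at 454 CPM in tumor WT against 40.3 with the KO, and Y-linked genes at 0.193 and 150.0 CPM, so the tumor libraries also differed in sex-linked RNA. Both normal libraries held both kinds, with Xist at 524 (WT) and 468 CPM (KO) and Y-linked genes at 94.7 and 122 CPM. Tumor WT was thus the only library with almost no Y-linked RNA. KO against WT in tumor gave 0.37 ± 0.24 (class-averaged log2, SD over classes) for Rpl10, 0.01 ± 0.10 for Rps4x, -0.16 ± 0.11 for Rpl36a and -0.24 ± 0.05 for Rpl39. These went in both directions. The part of cell sex in them was not tested.

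Related gene lists showed which neighbours of the module moved with it. Other ribosome-associated and TOP mRNA genes (translation factors and ribosome-bound proteins, 21 genes) had 17 of 21 lower and 1 higher in neutrophil-like than monocyte/macrophage-like cells (36.4% and 28.4% of all genes), among the lower ones Eif3e (-2.05 ± 0.19 SE), Npm1 (-1.99 ± 0.19 SE) and Rack1 (-1.82 ± 0.18 SE). In dendritic-like against monocyte/macrophage-like cells 18 of 21 were higher (10.9% of all genes), with Hnrnpa1 at 1.01 ± 0.17 SE and Eef1b2, an elongation factor subunit, at 0.96 ± 0.16 SE. Against T-like cells 17 of 21 were lower in monocyte/macrophage-like cells (23.1% of all genes) and 11 of 21 in NK-like cells (9.36%). The list's medians were -0.93, 0.57, -0.70 and -0.44 in these 4 contrasts, beside -0.32, -0.03, -0.03 and -0.07 over all genes.

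Ribosome biogenesis genes, which process ribosomal RNA in the nucleolus, had 19 of 27 lower in neutrophil-like than monocyte/macrophage-like cells (36.4% of all genes), among them Nop58 (-2.06 ± 0.28 SE, adjusted p = 6.1e-07) and the rRNA methylase gene Fbl (adjusted p = 3.68e-08). In alveolar macrophage-like against monocyte/macrophage-like cells 4 of 27 were higher and 1 lower, below the 18.0% and 21.2% of all genes. Mitochondrial ribosomal proteins, which serve a separate ribosome, had 57 of 77 lower and 3 higher in neutrophil-like than monocyte/macrophage-like cells (36.4% and 28.4% of all genes). In monocyte/macrophage-like against T-like cells 15 of 77 were lower and 1 higher, no more than the 23.1% and 26.9% of all genes. Regulators of ribosome synthesis had 7 of 16 higher and 4 lower in neutrophil-like than monocyte/macrophage-like cells (28.4% and 36.4% of all genes). Mxd1, a Myc antagonist, was 4.07 ± 0.28 SE higher (adjusted p = 7.51e-12). Max (2.05 ± 0.16 SE) and Eif4ebp1 (1.5 ± 0.32 SE) were also higher, and Larp1 was lower (-1.58 ± 0.19 SE, adjusted p = 9.73e-08). In alveolar macrophage-like against monocyte/macrophage-like cells Mxd1 was lower (-1.55 ± 0.26 SE, adjusted p = 1.87e-05). Myc itself was higher in B-like than T-like cells (1.85 ± 0.26 SE, adjusted p = 3.67e-06). All 10 cell cycle genes were lower in B-like than T-like cells (13.6% of all genes). The T-like class held cluster 21, led by Hist1h1b and holding Top2a and Mki67 among its leading genes, with 45 and 46 cells in the normal libraries.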

How the data were processed

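Single-cell 3′ libraries of CD45+ cells were used as raw UMI counts per gene and barcode, as deposited by the authors. Per the submitters' processing notes they used mm10. The file headers name software version 3.0.1 for normal and 3.1.0 for tumor, and the mapping tool was not given in the sources used here. Barcodes needed 200 or more genes and no more than 10% mitochondrial UMIs, and Scrublet doublets were removed. Clustering (scanpy 1.11.5, 2000 variable genes without members and other translation genes, 30 components, 15 neighbours, resolution 1.0) gave 31 clusters. A cluster took the class with the highest marker score, if at least 0.5 with at least 3 markers found in 10% of its cells. In 3 clusters the 10 leading genes held more markers of another class than of the scored one, and these were left unnamed. That last step was added after clusters had been seen.

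UMIs were summed per library and class. Classes were compared with edgeR 4.0.16 (quasi-likelihood, TMM or member UMIs as the scale, the library as a block, Benjamini-Hochberg over 10521 genes), in R 4.3.3, after a test on simulated counts. DESeq2 1.42.0 was an alternative. SE is the size of the log2 difference divided by the root of the F statistic. The 4 libraries are the replicates of a class contrast, and they differ in genotype and tissue. Libraries were compared without a test, since there was 1 per group. Shares have 95% Clopper-Pearson intervals and ratios conditional binomial ones, which cover counting error only.

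Genes named in the text were the paralog pairs, the X-linked members, up to 3 members with the largest departure in each direction per contrast (adjusted p under 0.05, same direction in 4 libraries) or per comparison of libraries (at least 20 UMIs in both in at least 4 classes), and up to 4 genes per list with at least 50 CPM. The members, lists and rules were chosen with earlier results of these data known. One member that the rule names is not reported here.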

Additional observations from a re-analysis of the deposited data

Results flagged for a closer look

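No group had 4 or more samples, so no sample was tested as an outlier within its group. Members whose difference went one way in every class in one comparison and the opposite way in every class in the other were listed, and the difference between comparisons was not tested. For KO against WT these were Rpl41 (-0.37 in tumor, 0.09 in normal lung, class-averaged log2 relative to the module) and Rpl3 (-0.21 and 0.10). For tumor against normal they were Rpl26 (-0.26 in WT, 0.05 in Rab37 KO), Rps28 (0.13 and -0.28), Rpl35a (0.16 and -0.11) and Rpl27 (0.21 and -0.23). All stayed below 1.5-fold.

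The 11 pseudogene and read-through features with ribosomal protein names, which were not members, held 1118 CPM (normal WT), 1370 (normal, KO), 820 (tumor, WT) and 538 (tumor, KO).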

How the results depend on the processing

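The values below are those that moved. Counts are of members past adjusted p under 0.05, and the causes were not tested except where fewer libraries or genes entered by construction. With DESeq2 the counts were 1 higher in B against T, 2 lower in B against T, 0 higher in alveolar macrophage against monocyte/macrophage, 0 lower in dendritic cell against monocyte/macrophage, 19 departing in B against T, 23 departing in NK against T, 47 departing in monocyte/macrophage against T, 38 departing in alveolar macrophage against monocyte/macrophage, 20 departing in dendritic cell against monocyte/macrophage. With doublets kept the counts were 3 higher in B against T, 24 lower in NK against T, 1 higher in monocyte/macrophage against T, 6 departing in NK against T, 11 departing in monocyte/macrophage against T. With classes from each cell's own markers the counts were 1 higher in B against T, 3 lower in B against T. With no replicate block, the library term left out, the counts were 0 lower in B against T, 37 lower in NK against T, 1 higher in monocyte/macrophage against T, 22 lower in alveolar macrophage against monocyte/macrophage, 26 higher in dendritic cell against monocyte/macrophage, 0 departing in B against T, 3 departing in NK against T, 9 departing in monocyte/macrophage against T, 4 departing in alveolar macrophage against monocyte/macrophage, 2 departing in dendritic cell against monocyte/macrophage. With members among the clustering genes the counts were 3 lower in B against T, 1 higher in monocyte/macrophage against T. With clusters 4, 16 and 7 put in their scored classes, an alternative chosen after seeing the data, the counts were 2 lower in B against T. With library size only the counts were 4 lower in B against T, 1 higher in neutrophil against monocyte/macrophage. With no filter on low counts the counts were 2 higher in alveolar macrophage against monocyte/macrophage, 33 higher in dendritic cell against monocyte/macrophage, 0 departing in B against T, 5 departing in NK against T, 9 departing in monocyte/macrophage against T, 7 departing in alveolar macrophage against monocyte/macrophage, 1 departing in dendritic cell against monocyte/macrophage. Leaving out 1 library at a time gave 0 to 1 higher in B against T, 0 to 2 lower in B against T, 0 to 0 higher in NK against T, 21 to 74 lower in NK against T, 1 to 2 higher in monocyte/macrophage against T, 71 to 77 lower in monocyte/macrophage against T, 2 to 3 higher in neutrophil against monocyte/macrophage, 69 to 70 lower in neutrophil against monocyte/macrophage, 1 to 1 higher in alveolar macrophage against monocyte/macrophage, 19 to 57 lower in alveolar macrophage against monocyte/macrophage, 22 to 74 higher in dendritic cell against monocyte/macrophage, 0 to 1 lower in dendritic cell against monocyte/macrophage, 0 to 3 departing in B against T, 3 to 9 departing in NK against T, 10 to 21 departing in monocyte/macrophage against T, 41 to 46 departing in neutrophil against monocyte/macrophage, 3 to 19 departing in alveolar macrophage against monocyte/macrophage, 1 to 5 departing in dendritic cell against monocyte/macrophage. The member share without 1 library ranged from 33% to 36.8% in T-like cells, from 32.2% to 34% in B-like cells, from 24.1% to 25.1% in NK-like cells, from 23.4% to 24.7% in dendritic cell-like cells, from 16.8% to 19% in monocyte/macrophage-like cells, from 13.7% to 14.5% in alveolar macrophage-like cells, from 4.67% to 5.21% in neutrophil-like cells. With the 50 highest other genes left out of the denominator the share was 40.02% in B-like cells, 28.7% in NK-like cells, 30.5% in dendritic cell-like cells, 23.2% in monocyte/macrophage-like cells, 18.1% in alveolar macrophage-like cells, 7.89% in neutrophil-like cells. The class-averaged log2 ratio of the module for KO/WT in tumor was -0.0897 with doublets kept, -0.0271 with mitochondrial limit 5 percent, -0.0223 with denominator without mitochondrial UMIs, -0.0375 with denominator without the 50 highest other genes, -0.0237 with classes from each cell's own markers, -0.0686 with members allowed among the clustering genes, -0.0379 with cells with over 1 percent neutrophil-marker UMIs left out of other classes, -0.0634 with clusters 4, 16 and 7 put in their scored classes, -0.0742 with clusters weighted alike. The class-averaged log2 ratio of the module for KO/WT in normal lung was -0.112 with mitochondrial limit 5 percent, -0.0834 with denominator without mitochondrial UMIs, -0.08 with denominator without the 50 highest other genes, -0.109 with classes from each cell's own markers, -0.083 with members allowed among the clustering genes, -0.0866 with cells with over 1 percent neutrophil-marker UMIs left out of other classes, -0.079 with clusters weighted alike. The class-averaged log2 ratio of the module for tumor/normal in WT was -0.256 with mitochondrial limit 5 percent, -0.271 with denominator without mitochondrial UMIs, -0.244 with denominator without the 50 highest other genes, -0.268 with classes from each cell's own markers, -0.228 with members allowed among the clustering genes, -0.241 with clusters 4, 16 and 7 put in their scored classes. The class-averaged log2 ratio of the module for tumor/normal in Rab37 KO was -0.255 with doublets kept, -0.171 with mitochondrial limit 5 percent, -0.21 with denominator without mitochondrial UMIs, -0.201 with denominator without the 50 highest other genes, -0.183 with classes from each cell's own markers, -0.214 with members allowed among the clustering genes, -0.213 with clusters 4, 16 and 7 put in their scored classes, -0.181 with clusters weighted alike. It kept its sign in all 4 comparisons under each alternative. Named departures between classes kept their direction under each alternative, with 63 settings in which significance was lost and 278 in which it was kept, and those between libraries kept theirs too. Of these, Rpl35 for KO/WT in normal lung moved by more than its spread over classes, from -0.38 to -0.35 with doublets kept and -0.41 with the mitochondrial limit at 5%. The tumor WT library, with 644 cells and 23 to 210 in a class, limits the precision of every comparison that uses it.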
